A study of Homo sapiens with 3 samples.

Results

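Gene expression in Caco-2 cells given polydatin together with dextran sulfate sodium (DSS) was compared with that in untreated Caco-2 cells. The comparison describes the combined state under both agents. Genes were included when they had at least 20 reads in either of the libraries compared, which held for 14453 of the 60664 gene identifiers in the count table, 12147 of them protein-coding. Just inside that limit lay 120 genes whose higher count was 20, and just outside it 147 genes whose higher count was 19. A gene with fewer than 20 counts in control entered only through the library of both agents, so it could not be called lower. Likewise, a gene with fewer than 20 counts in the library of both agents could not be called higher.

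Caco-2 cells are an established line from a human colon carcinoma that can take on features of absorptive cells of the gut, and all libraries came from it, with the genotype given as WT. Control cells stayed in a standard incubator, DSS cells received 3% DSS for 8 h, and the combined group received 30 µM polydatin for 2 h and then polydatin with 3% DSS for 8 h. As its title says, the study was about NRF2, SLC7A11 and GPX4 and ferroptosis, an iron-dependent death by lipid peroxidation. Each group was 1 library of total RNA. There was no replicate and so no p-value or standard error, and each ratio compares libraries rather than conditions. No library of cells given polydatin alone was analysed here, so the parts of the 2 agents in a difference from control cannot be told apart. Whether the control cells received a solvent is not given in the sources used here.

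DSS is a sulfated polysaccharide that injures the intestinal epithelium and is widely used to provoke colitis in rodents. Polydatin is resveratrol carrying a glucose, a plant stilbene that gut cells can take up or cleave. NRF2, the product of NFE2L2, is held for degradation by KEAP1 until electrophiles or oxidants modify KEAP1. It then pairs with small MAF proteins on antioxidant response elements of genes for glutathione synthesis, quinone reduction and efflux. ATF4, the effector of the integrated stress response, drives amino acid import, serine synthesis and tRNA charging from amino acid response elements. SLC7A11 imports the cystine needed for glutathione and is a target of both factors, and GPX4 uses glutathione to reduce lipid peroxides.

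Promoters are shown for genes that stood apart in these groups and that hold the element named for the group in the RefSeq window of 250 bases before to 50 after the start. The 250 bases before the start are printed in the gene's direction on GRCh38.p14, with the matched letters in capitals. MAFF (chr22:38201744-38201993, plus strand), GPX2 (chr14:64942746-64942995, minus strand) and GCLM (chr1:93909431-93909680, minus strand) hold the antioxidant response element TGACNNNGC or its complement. ATF3 (chr1:212565157-212565406, plus strand) and IARS1 (chr9:92293698-92293947, minus strand) hold the amino acid response element TGATGNAA. INSIG1 (chr7:155297628-155297877, plus strand) holds the sterol element CACNCCAC, and ENO2 (chr12:6914330-6914579, plus strand) the hypoxia element ACGTG.
MAFF: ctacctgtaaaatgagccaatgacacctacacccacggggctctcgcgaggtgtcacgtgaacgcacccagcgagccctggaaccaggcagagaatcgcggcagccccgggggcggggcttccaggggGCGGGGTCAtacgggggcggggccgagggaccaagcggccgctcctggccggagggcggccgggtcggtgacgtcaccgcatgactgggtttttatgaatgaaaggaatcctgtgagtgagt
GPX2: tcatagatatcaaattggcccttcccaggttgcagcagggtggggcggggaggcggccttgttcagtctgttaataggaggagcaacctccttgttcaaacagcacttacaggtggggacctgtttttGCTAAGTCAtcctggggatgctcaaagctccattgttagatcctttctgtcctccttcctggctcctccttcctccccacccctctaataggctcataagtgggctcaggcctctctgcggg
GCLM: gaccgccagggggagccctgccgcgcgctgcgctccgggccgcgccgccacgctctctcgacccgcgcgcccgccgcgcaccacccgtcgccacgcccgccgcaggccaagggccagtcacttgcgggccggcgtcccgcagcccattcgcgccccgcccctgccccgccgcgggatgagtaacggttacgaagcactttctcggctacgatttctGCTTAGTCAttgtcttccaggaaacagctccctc
ATF3: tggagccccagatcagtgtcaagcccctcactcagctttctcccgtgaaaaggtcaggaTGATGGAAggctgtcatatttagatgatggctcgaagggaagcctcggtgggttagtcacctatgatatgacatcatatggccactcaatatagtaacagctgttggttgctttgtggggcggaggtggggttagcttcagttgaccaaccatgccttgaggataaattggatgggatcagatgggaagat
IARS1: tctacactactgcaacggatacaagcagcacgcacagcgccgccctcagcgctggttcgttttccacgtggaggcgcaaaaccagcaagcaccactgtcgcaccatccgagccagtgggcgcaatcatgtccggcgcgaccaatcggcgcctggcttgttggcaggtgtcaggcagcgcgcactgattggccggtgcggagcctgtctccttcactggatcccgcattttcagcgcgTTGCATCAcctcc
INSIG1: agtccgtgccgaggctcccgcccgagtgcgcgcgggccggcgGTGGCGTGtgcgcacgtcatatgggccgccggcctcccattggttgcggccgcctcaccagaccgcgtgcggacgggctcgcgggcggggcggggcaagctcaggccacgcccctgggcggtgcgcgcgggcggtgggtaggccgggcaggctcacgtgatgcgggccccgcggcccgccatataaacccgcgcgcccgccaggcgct
ENO2: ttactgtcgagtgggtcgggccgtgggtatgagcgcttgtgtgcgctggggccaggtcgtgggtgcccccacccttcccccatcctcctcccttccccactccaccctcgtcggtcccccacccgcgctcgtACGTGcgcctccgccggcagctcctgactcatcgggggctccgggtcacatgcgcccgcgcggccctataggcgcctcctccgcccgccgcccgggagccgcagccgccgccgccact

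A match is a description of letters, not evidence that a factor was bound. On either strand the antioxidant response element was found in 13.6% of 27305 RefSeq promoters, in 5 of 19 measured NRF2 targets with an entry and in 5 of 17 cystine and glutathione genes. The amino acid response element was found in 3.67% of all promoters, in 6 of 16 cytosolic aminoacyl-tRNA synthetases and in 3 of 19 other stress response genes. The sterol element stood in 5.74% of all promoters and in 3 of 18 cholesterol genes, and the hypoxia element in 21.6% and in 10 of 22 hypoxia and glycolysis genes. Among measured genes the antioxidant response element stood in 15.3% of promoters, against 15.1% of genes at least 2-fold higher than control and 10.4% of genes at least 2-fold lower. The amino acid response element stood in 1.7% of promoters of measured genes, in 1.38% of the higher and in 3.01% of the lower genes. For the sterol element these shares were 5.92%, 7.63% and 5.69%, and for the hypoxia element 26.9%, 22.4% and 29.8%. The AP-1 site TGANTCA was found in 7.76% of all promoters, in 4.51% of promoters of measured genes, in 81 of 800 promoters of genes at least 2-fold higher than control (10.1%) and in 15 of 299 of genes at least 2-fold lower (5.02%). The leading immediate early, MAP kinase feedback, protease and integrin genes with an entry held no TGANTCA. Among them were KLF6, JUND, JUN, ATF3, DUSP8, DUSP1, TIMP3 and FN1. The xenobiotic response element GCGTG stood in 36.3% of all promoters and in 5 of 8 aryl hydrocarbon receptor targets. It stood in 50.4% of promoters of measured genes, in 40.4% of the higher and in 48.2% of the lower genes. These shares were not tested.

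The control library held 18695613 counts, the DSS library 18825914 and the library of both agents 16667622. Wherever 3 counts of a gene stand together, they are in the order control, DSS, DSS with polydatin. Mitochondrially encoded transcripts held 5.31%, 4.77% and 4.34% of counts, and long noncoding genes 1.23%, 1.42% and 1.71%. The detection floor of 3 counts corresponded to between 0.162 and 0.172 CPM (counts scaled to library size and composition), and 20 counts to between 1.08 and 1.15 CPM. Of 15 epithelial and colon line markers, 13 were measured, while CDX1 had 0 counts in every library and KRT20 had 10, 9 and 8. Of 14 leukocyte markers 4 were measured, with PTPRC, CD2, MS4A1, TYROBP and HBB at 0 in all libraries, and the list summed to 7.38 CPM in control, 12.9 with DSS alone and 13 with both agents. Of the 4 measured, 3 were at least 1.5-fold higher with both agents than in control and 1 was within 1.5-fold. The higher markers were LYZ with 14, 83 and 39 counts, CSF1R with 39, 44 and 84 and ITGAM with 25, 34 and 43. LYZ was measured only through the library of both agents, so it could not be called lower. Of 13 fibroblast and endothelial markers 7 were measured, with KDR and CLDN5 at 0 throughout, and the list summed to 93.1, 72.4 and 75 CPM. Within it VWF had 9, 22 and 68 counts and PECAM1 had 443, 297 and 166. What part such markers have in other results was not tested. In bulk RNA, fewer cells of a kind and less RNA per cell cannot be told apart.

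Across the measured genes, 1224 were at least 2-fold higher in DSS with polydatin than in control (8.47% of 14453) and 476 were at least 2-fold lower (3.29%), each with a 95% interval excluding 1. Protein-coding genes made up 953 of the higher and 343 of the lower genes. At 4-fold the numbers were 278 higher and 32 lower, and at 8-fold 82 and 9. The median log2 ratio was -0.03, and the range from the 5th to the 95th percentile ran from -0.89 to 1.33. The upper tail was therefore the longer. Intervals here are exact 95% intervals that cover counting error only, because 1 library a group gives no spread between replicates. Reads that carry no molecular identifier may be copies of 1 molecule, so even the counting error may be understated.

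The genes in the upper tail were mostly weakly expressed. The 1224 higher genes had a median level of 2.20 CPM in control, 4.61 with DSS alone and 6.65 with both agents, and 507 of them reached 10 CPM in the higher library. Together they held 1.71% of counts in control, 3.72% with DSS alone and 5.14% with both agents. The 476 lower genes had medians of 9.09, 5.07 and 3.93 CPM and held 3.01%, 1.90% and 1.40% of counts. These genes were chosen for the distance between control and DSS with polydatin, so a DSS value between the others follows in part from the choice and nothing is read from it. The same holds for the 15 highest and 15 lowest genes, and for list members named for their distance from control. Where the order of the libraries is given for such genes, it describes their counts only.

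**Figure D1:**
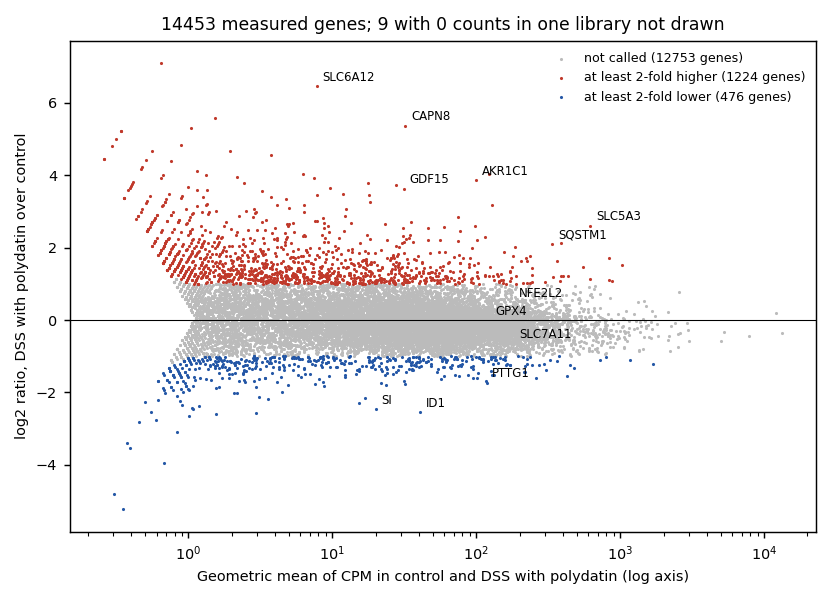
Each point is a measured gene, with its mean CPM in control and DSS with polydatin on a log axis and its log2 ratio of DSS with polydatin over control, and the 9 genes with 0 counts in a library are not drawn. The 1224 red genes spread to larger ratios than the 476 blue genes, and the scatter widens towards low CPM.

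Genes with at least 5 CPM in the higher library were ranked by the bound of the interval nearest to 1, so that ratios from few reads rank lower. The gene ranked farthest above control was SLC6A12, which encodes a betaine carrier that cells use to take up an osmolyte (chromosome 12, 190077 to 214570, GRCh38, minus strand). It had 15 counts in control, 1016 with DSS alone and 1271 with both agents, 88.2 times control (53.3 to 158). CAPN8, a calpain protease of the digestive tract (chromosome 1, 223538007 to 223665734), had 91, 2651 and 3608 counts in the same order and was 41.3 times control (33.5 to 51.4). In both genes the DSS count lay between the others and nearer to that with both agents, and nothing more is read from it. CDH16, a cadherin best known from kidney, had 4, 133 and 185 counts, 48.2 times control (18.5 to 179). CLTRN, which helps amino acid carriers reach the brush border, had 14, 209 and 318 counts and was 23.7 times control (13.9 to 43.8).

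Among genes with more reads, the long noncoding RNA UCA1 had 548, 5945 and 8703 counts, 16.5 times control (15.2 to 18.1). AKR1C1, an aldo-keto reductase regulated by NRF2 (chromosome 10, 4963253 to 4983283), had 474, 4059 and 6623 counts and was 14.6 times control (13.3 to 16). The stress-induced cytokine gene GDF15 had 163, 1047 and 1938 counts, 12.4 times control (10.5 to 14.6). In these 3 genes the DSS library was well above control and DSS with polydatin was above DSS. DUSP5, a phosphatase that switches off ERK in the nucleus, had 138, 889 and 1776 counts, 13.4 times control (11.3 to 16.1). TUBA1A, an alpha-tubulin, had 35, 332 and 507 counts, 15.1 times control (10.7 to 21.9), and GBP2, an interferon-inducible GTPase, had 49, 409 and 591, 12.6 times control (9.38 to 17.2). The placental-type alkaline phosphatase gene ALPP had 86, 1377 and 1151 counts, 13.9 times control (11.2 to 17.6), and was the only gene of the 15 highest whose ratio of DSS with polydatin to DSS was below 1, at 0.888.

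BOLA2B differed from the rest of the 15 highest in that control and DSS were alike, with 3 and 4 counts, against 114 in DSS with polydatin, 39.6 times control (13.2 to 195). BOLA2B has near-identical copies in the genome, so how its reads were assigned is uncertain. The same holds for AKR1C1 with AKR1C2, for ALPP with ALPG, for HSPA1A with HSPA1B, and for histone genes and pseudogenes. The remaining genes of the 15 highest have no symbol. ENSG00000286966 had 1, 41 and 132 counts, 137 times control with an interval from 24.2 to 5470. The long noncoding gene ENSG00000283265 had 7, 171 and 170 counts, and the antisense gene ENSG00000228509 had 28, 225 and 440.

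By the same ranking ID1 stood farthest below control. ID1 encodes an inhibitor of basic helix-loop-helix factors and is a direct target of BMP signals (chromosome 20, 31605283 to 31606515, plus strand). It had 1783 counts in control, 714 with DSS alone and 293 with both agents, 0.171 times control (0.151 to 0.194). SI, the brush border sucrase-isomaltase (chromosome 3, 164978898 to 165078495), had 853, 172 and 149 counts and was at 0.182 times control (0.152 to 0.217). ID1 was lower again in DSS with polydatin than in DSS, whereas SI was about the same in both.

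Plasma protein genes that fetal gut and liver cells make were prominent among the 15 lowest. FGG, the gamma chain of fibrinogen, had 617, 158 and 120 counts and was at 0.203 times control (0.165 to 0.247). AHSG, which encodes fetuin-A, had 645, 266 and 140 counts, 0.226 times control (0.187 to 0.272). AFP, alpha-fetoprotein, had 118, 41 and 26 counts, and the protease gene HABP2 had 138, 74 and 29. These genes were highest in control and lowest in DSS with polydatin.

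Mitotic genes were a further group among the 15 lowest. PTTG1, the securin that holds back the separation of sister chromatids, had 3908, 2492 and 1136 counts, 0.303 times control (0.283 to 0.323). KIF20A, a kinesin of cytokinesis, had 3818, 2324 and 1140 counts (0.311, 0.291 to 0.332), and CENPE, a kinetochore motor, had 3017, 1513 and 951 (0.328, 0.305 to 0.353). The other genes were LAMA1, a laminin chain with 8183, 4269 and 2603 counts (0.331, 0.317 to 0.346), the ephrin receptor gene EPHA4 with 1066, 321 and 300, and PHEX, a peptidase tied to phosphate balance, with 1029, 408 and 305. The chromatin protein gene HMGB3 had 3229, 1919 and 1019 counts, the pseudogene HMGB1P6 had 798, 474 and 223, and GNG2, a G protein gamma subunit, had 130, 33 and 21.

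**Figure D2:**
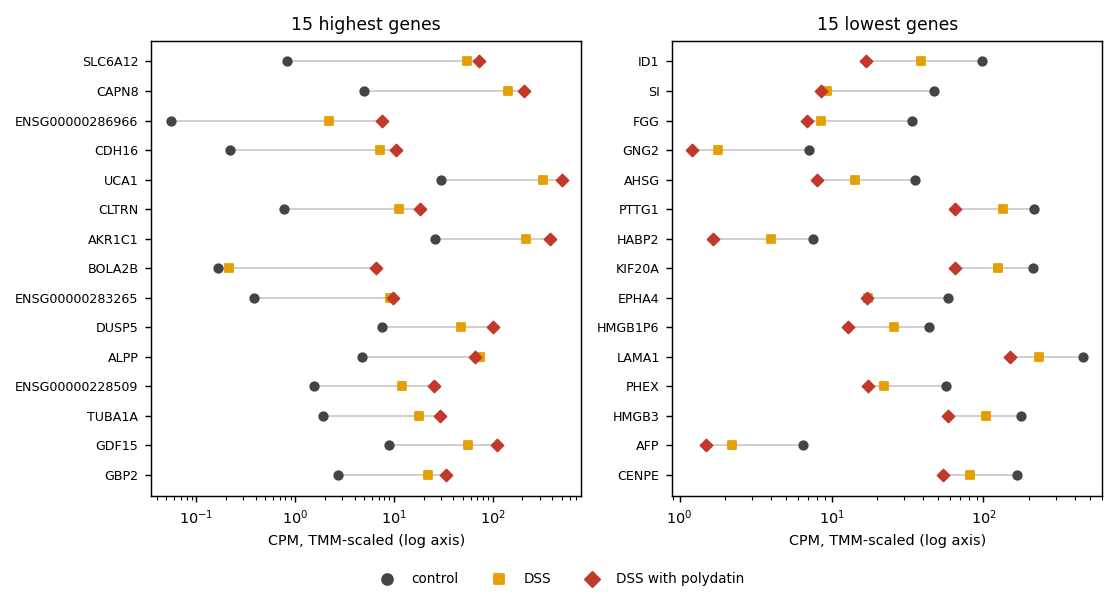
CPM on a log axis for the 15 highest (left) and 15 lowest (right) genes, with control as circles, DSS as squares and DSS with polydatin as diamonds. ALPP is highest in DSS, and BOLA2B is high in DSS with polydatin alone.

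In control, 6 measured genes had 0 counts. CALB1, the calcium-binding protein calbindin, had 0, 25 and 53 counts, which against the floor of 3 counts in control is at least 18.4-fold higher. NMRAL2P, a pseudogene transcribed under NRF2, had 0, 12 and 36 counts, at least 12.5-fold higher. PPIAP46 had 0, 41 and 84 counts, TPTEP1 had 0, 10 and 44, and ENSG00000250920 had 0, 16 and 28. In DSS with polydatin 3 measured genes had 0 counts. They were RASGRF2-AS1 with 23 counts in control and 5 in DSS, ENSG00000228876 with 22 and 3, and the tubulin pseudogene TUBB8P4 with 20 and 2, at least 7.36-fold, 7.04-fold and 6.4-fold lower than control.

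Of the genes in the title of the series, SLC7A11 was below control, GPX4 at its level and NFE2L2 above it. SLC7A11 (chromosome 4, 138164097 to 138242349) had 4128 counts in control, 1548 with DSS alone and 2534 with both agents, so the combined library stood at 0.639 times control (0.608 to 0.672), between DSS and control. With scaling on total counts alone its log2 ratio moved from -0.65 to -0.54, inside 1.5-fold. GPX4 (chromosome 19, 1103926 to 1106791) had 2259, 2048 and 2155 counts, 0.993 times control (0.936 to 1.05). NFE2L2 (chromosome 2, 177227595 to 177392697) had 2748, 3673 and 3732 counts, 1.41 times control (1.35 to 1.49). KEAP1 (chromosome 19, 10486120 to 10503741) had 989, 1280 and 1298 counts, 1.37 times control (1.26 to 1.49). For NFE2L2 and KEAP1 the libraries with DSS lay close together and above control. Scaling on total counts took the log2 ratio of NFE2L2 from 0.50 to 0.61, past 1.5-fold. With a trend on GC content and transcript length removed, that of KEAP1 went from 0.45 to 0.05 and that of GPX4 from -0.01 to -0.34.

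The partners and regulators of NRF2 were higher in 4 of 10 measured genes and lower in none at 1.5-fold, a limit passed upwards by 16.1% of all measured genes (2329) and downwards by 12.6% (1822). The median log2 ratio of the list was 0.48. The numbers over all measured genes change with the setting, and list counts under other settings are to be read beside them. With total-count scaling 2881 genes passed 1.5-fold upwards and 1234 downwards. With the trend on GC content and transcript length removed, 1765 passed it upwards and 1895 downwards. All 3 small MAF genes of the list, whose proteins pair with NRF2 on DNA, were among the 4. MAFF had 96, 303 and 590 counts, 6.4 times control (5.15 to 8.03), MAFK had 268, 621 and 850 (3.30, 2.88 to 3.80) and MAFG had 517, 1020 and 1370 (2.76, 2.49 to 3.06). SQSTM1, the autophagy receptor p62 that captures KEAP1, had 2954, 8182 and 12269 counts and was 4.33 times control (4.15 to 4.50). All 4 were higher in DSS with polydatin than in DSS, an order favoured in part by naming them for their distance from control. CUL3 and RBX1, subunits of the ligase that carries KEAP1, were at 0.694 and 0.708 times control, short of 1.5-fold.

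Of the NRF2 targets, 13 of 27 measured genes were higher and 2 were lower at 1.5-fold, with a median log2 ratio of 0.55. AKR1C2, a ketosteroid reductase next to AKR1C1, had 768, 4488 and 6710 counts, 9.10 times control (8.44 to 9.82). OSGIN1, an oxidative stress-induced growth inhibitor, had 59, 187 and 399 counts, 7.04 times control (5.35 to 9.42), and the efflux pump gene ABCC2 had 2676, 5419 and 7015 (2.73, 2.61 to 2.86). TXNRD1, a reductase that recharges thioredoxin, had 4796, 7018 and 10655 counts (2.31, 2.24 to 2.39). The windows of AKR1C1, AKR1C2, OSGIN1 and ABCC2 hold no TGACNNNGC.

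Other classical NRF2 targets lay within 1.5-fold of control. NQO1, the quinone reductase, had 7978, 12373 and 10559 counts, 1.38 times control (1.34 to 1.42), and was lower in DSS with polydatin than in DSS. HMOX1, haem oxygenase, had 506, 446 and 478 counts, 0.984 times control (0.866 to 1.12). GSR and PRDX1 were at 0.956 and 0.892 times control. The 2 targets at least 1.5-fold below control were SLC7A11 and TXN, thioredoxin, with 4629, 3958 and 2778 counts (0.625, 0.596 to 0.655). Scaling on total counts brought both inside 1.5-fold.

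**Figure D3:**
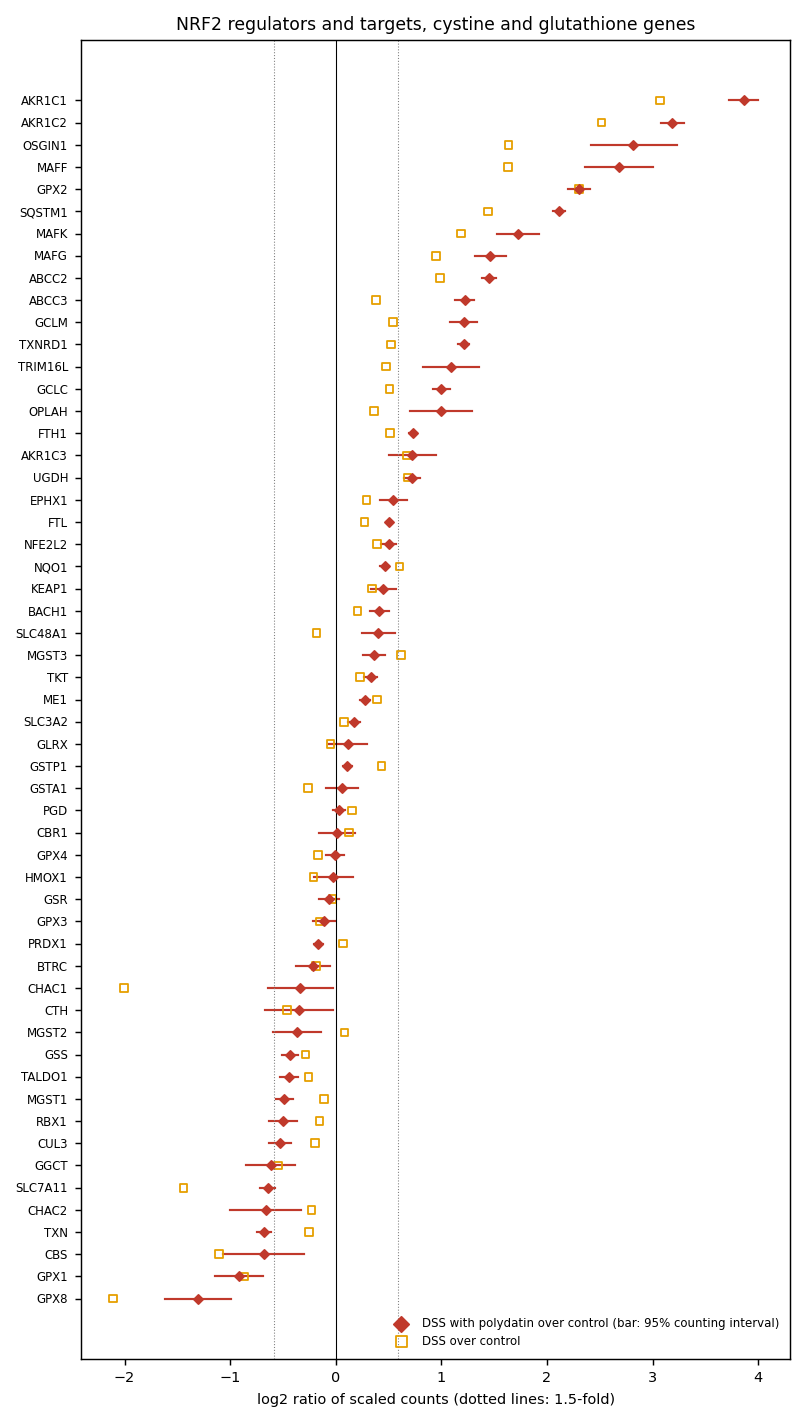
Log2 ratios over control for measured NRF2 regulators, NRF2 targets and cystine and glutathione genes (1 target is not shown), with DSS with polydatin as red diamonds with 95% counting intervals and DSS as open squares. AKR1C1, AKR1C2, OSGIN1 and MAFF stand highest, and SLC7A11, CHAC1 and GPX8 show the widest gaps between open squares and diamonds on the lower side.

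Glutathione genes went both ways. Of 23 measured genes for cystine import and glutathione, 4 were higher and 6 lower at 1.5-fold, with a median log2 ratio of -0.11, and scaling on total counts left 2 of the 6. GPX2, the peroxidase typical of gut epithelium whose promoter is shown above, had 937, 4715 and 4435 counts, 4.93 times control (4.59 to 5.29). GCLM and GCLC, the subunits of the enzyme that limits glutathione synthesis, had 735, 1092 and 1635 counts (2.32, 2.12 to 2.53) and 2050, 2976 and 3940 (2.00, 1.90 to 2.11). GPX2 was at its full height in DSS, while GCLM and GCLC were higher in DSS with polydatin than in DSS.

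On the lower side GPX8, an endoplasmic reticulum peroxidase, had 309, 73 and 120 counts, 0.404 times control (0.325 to 0.501), and GPX1, the main cytosolic peroxidase, had 489, 274 and 249 (0.530, 0.453 to 0.619). CHAC1, which degrades glutathione and responds to ATF4, had 205, 52 and 156 counts, 0.792 times control (0.639 to 0.981). It was thus far lower in DSS than in the other libraries. GSS, which completes glutathione synthesis, was at 0.740 times control (0.702 to 0.781).

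Genes that restrain ferroptosis outside GPX4 numbered 3 higher and 3 lower of 17 measured, with a median of -0.02. These counts are near the shares of all measured genes, 16.1% higher and 12.6% lower. AIFM2, the ubiquinone reductase known as ferroptosis suppressor protein, had 448, 711 and 674 counts, 1.57 times control (1.39 to 1.77). SCD, which makes monounsaturated fatty acids, had 35522, 67407 and 58130 counts (1.70, 1.68 to 1.73), and DHCR7, a sterol reductase, had 4338, 8069 and 7997 (1.92, 1.85 to 1.99). DHODH, a mitochondrial ubiquinone reductase, had 232, 183 and 95 counts, 0.426 times control (0.332 to 0.544). NFS1, which supplies sulfur for iron-sulfur clusters, had 1201, 1066 and 709 (0.615, 0.559 to 0.675). After scaling, SCD was highest in DSS, DHCR7 was slightly higher in DSS with polydatin than in DSS, and DHODH and NFS1 were lowest in DSS with polydatin.

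Of 22 measured genes that promote ferroptosis, 4 were higher and 2 lower, with a median of 0.28, again near the shares of all measured genes (16.1% and 12.6%). SAT1, which acetylates polyamines, had 1804, 2367 and 3579 counts, 2.07 times control (1.95 to 2.19). DPP4, a brush border peptidase, had 3894, 6508 and 6266 (1.68, 1.61 to 1.74), and FADS2, a desaturase for polyunsaturated fatty acids, had 430, 658 and 721 (1.75, 1.55 to 1.97). ACSL4, which loads such fatty acids for membrane lipids, was at 1.23 times control (1.15 to 1.3). NOX1, the colonic NADPH oxidase, had 988, 1172 and 606 counts, 0.639 times control (0.576 to 0.707), and the channel gene VDAC3 was at 0.616 (0.584 to 0.651).

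Iron genes stayed close to control. Of 20 measured, 2 were higher, none was lower and the median was 0.01. FTH1, the ferritin heavy chain that stores iron, had 10156, 14763 and 16214 counts, 1.66 times control (1.62 to 1.70). The light chain FTL had 20271, 24995 and 27629 counts, 1.42 times control (1.39 to 1.45). CYBRD1, a ferric reductase of the duodenal brush border, had 23, 42 and 58 counts (2.63, 1.59 to 4.46). TFRC, the transferrin receptor, was at 0.865 times control, SLC40A1, the iron exporter ferroportin, at 1.02, and NCOA4, the receptor for ferritin turnover, at 1.10.

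The integrated stress response list held 3 higher and 9 lower genes of 25 measured, with a median log2 ratio of -0.35. Several of the 9 encode enzymes of serine synthesis and one-carbon metabolism. PSAT1 had 4085, 1196 and 1359 counts, 0.346 times control (0.326 to 0.368). PHGDH had 6790, 2522 and 2754 (0.422, 0.404 to 0.442) and MTHFD2 had 12065, 4688 and 6421 (0.554, 0.538 to 0.571). All 3 were lowest in DSS and somewhat higher in DSS with polydatin. ATF4 had 9657, 8176 and 9478 counts, 1.02 times control (0.993 to 1.05).

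The 3 genes at least 1.5-fold above control in this list encode regulators. ATF3, a stress-induced repressor, had 262, 569 and 1110 counts, 4.41 times control (3.85 to 5.07). PPP1R15A, which reverses the phosphorylation of eIF2 alpha, had 815, 1292 and 1508 (1.93, 1.77 to 2.10), and TRIB3, a pseudokinase that restrains ATF4, had 1724, 2021 and 3029 (1.83, 1.72 to 1.94). DDIT3, the factor CHOP, had 298, 247 and 336 counts, 1.17 times control. The median of the list for DSS over control, which shares the control library, was -0.90.

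None of 20 cytosolic aminoacyl-tRNA synthetase genes was higher and 11 were lower at 1.5-fold, with a median log2 ratio of -0.65 (DSS over control, sharing the control library, -0.62). These enzymes charge tRNAs with their amino acids. FARSB had 3952, 2396 and 1326 counts, 0.349 times control (0.328 to 0.372), YARS1 had 4543, 2098 and 1875 (0.430, 0.407 to 0.454) and IARS1, whose promoter is shown, had 6901, 4186 and 3787 (0.571, 0.549 to 0.595). The gene nearest the top was QARS1, at 1.03 times control (0.972 to 1.10).

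Amino acid carriers divided into 6 higher and 4 lower of 20 measured, with a median of 0.19. SLC7A8, a carrier for large neutral amino acids, had 902, 2564 and 2860 counts (3.30, 3.06 to 3.56). SLC38A2, which imports small neutral amino acids and responds to osmotic stress, had 11042, 20747 and 22385 (2.11, 2.06 to 2.16), and SLC36A4 had 429, 789 and 855 (2.08, 1.85 to 2.34). SLC7A5, which exchanges large neutral amino acids, had 3731, 2469 and 2030 counts, 0.567 times control (0.537 to 0.598). SLC3A2, the heavy chain that SLC7A11 and SLC7A5 need, was at 1.12 times control (1.08 to 1.17). On total-count scaling only 1 of the 4 lower genes kept its call.

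Cholesterol genes were higher as a group, with 15 of 24 measured genes at least 1.5-fold above control, none below and a median log2 ratio of 0.77. LSS, the cyclase that makes lanosterol, had 2096, 5669 and 6243 counts, 3.10 times control (2.95 to 3.26). MVD, of the mevalonate pathway, had 672, 1671 and 1911 (2.96, 2.71 to 3.24), and INSIG1, which holds the sterol sensor in place, had 1952, 4028 and 5164 (2.75, 2.61 to 2.90). Both libraries with DSS lay above control for LSS, MVD and INSIG1, and the list's median for DSS over control was 0.74.

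Of 21 measured genes of fatty acid synthesis and oxidation, 6 were higher and 3 lower, with a median of 0.26 that turned to -0.04 once a trend on GC content and transcript length was removed. ACSS2, which makes acetyl-CoA from acetate, had 2231, 6007 and 7027 counts, 3.28 times control (3.13 to 3.44). FASN, fatty acid synthase, had 4754, 9504 and 9677 counts (2.12, 2.05 to 2.19), but its log2 ratio of 1.08 became 0.37 without the trend. CPT1A, the gate to mitochondrial oxidation, had 611, 1073 and 1139 (1.94, 1.76 to 2.15). On the lower side DGAT2, which makes triglyceride, had 589, 369 and 326 (0.576, 0.502 to 0.661).

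Hypoxia and glycolysis genes were higher in 9 of 26 measured and lower in none, with a median of 0.23 (DSS over control, sharing the control library, 0.54). With the trend on GC content and length removed, 8 were higher and the median fell to 0.04. ENO2, the neuronal-type enolase, had 202, 511 and 894 counts, 4.61 times control (3.95 to 5.40). PFKFB4 had 139, 442 and 366 (2.74, 2.25 to 3.36) and VEGFA, the angiogenic growth factor, had 4093, 7893 and 8958 (2.28, 2.20 to 2.37). Glucose uptake and lactate genes behaved differently. SLC2A1, the glucose carrier GLUT1, had 12202, 21753 and 10971 counts, 0.936 times control (0.912 to 0.961), and LDHA had 16873, 25756 and 15025, 0.927 times control (0.907 to 0.948). Both were above control in the DSS library alone.

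Genes of the osmolyte response were higher in 6 of 10 measured and lower in none, with a median of 0.71. Besides SLC6A12, the myo-inositol carrier gene SLC5A3 had 4566, 22872 and 26789 counts, 6.11 times control (5.92 to 6.31). The water and glycerol channel AQP3 had 240, 563 and 752 (3.26, 2.82 to 3.79), and NFAT5, the factor that senses tonicity, had 3587, 6006 and 5846 (1.70, 1.63 to 1.77). SLC6A6, the taurine carrier, had 2431, 3497 and 2396 counts, 1.03 times control (0.970 to 1.09). Relative to DSS, the library of both agents was at 1.42 times for AQP3, 1.33 for SLC6A12, 1.24 for SLC5A3 and 1.03 for NFAT5.

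Chaperones of the cytosol and mitochondria divided, with 3 higher and 7 lower of 19 measured and a median of -0.09 that became 0.01 on total-count scaling. HSPB8, a small heat shock protein that works with autophagy, had 98, 532 and 1041 counts, 11.1 times control (8.99 to 13.8). The inducible HSPA1B had 389, 788 and 816 (2.18, 1.93 to 2.47) and HSPA1A 848, 1668 and 1536 (1.89, 1.73 to 2.05). The mitochondrial chaperonins were lower, HSPD1 with 46155, 32241 and 19285 counts (0.435, 0.428 to 0.442) and HSPE1 with 1076, 827 and 463 (0.448, 0.401 to 0.50). HSP90AA1 was at 0.557 times control (0.547 to 0.567). For these 3 genes DSS with polydatin was the lowest library.

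The chaperones of the endoplasmic reticulum were higher in 3 of 20 and lower in none, with a median of 0.07, and in 1 with the trend on GC content and length removed. DNAJB9 had 477, 717 and 879 counts, 1.92 times control (1.71 to 2.15), and HSPA5, the chaperone BiP, had 16601, 17884 and 17812, 1.12 times control (1.09 to 1.14). Among metallothioneins and zinc genes 5 of 11 were measured and 2 were lower, MT2A with 56, 32 and 15 counts (0.279, 0.147 to 0.50) and the zinc importer SLC39A10 with 4115, 3844 and 2369 (0.600, 0.570 to 0.631).

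Immediate early genes, the first to answer growth factors and stress kinases, were higher in 14 of 21 measured and lower in none, with a median log2 ratio of 0.99. KLF6 had 728, 2849 and 4233 counts, 6.05 times control (5.60 to 6.56). The AP-1 subunits JUND and JUN had 282, 827 and 1296 (4.79, 4.20 to 5.46) and 272, 789 and 1160 (4.44, 3.89 to 5.09). JUND carries a GC-rich transcript, and its log2 ratio of 2.26 became 1.61 with the trend on GC content and length removed. FOS and EGR1 did not share this, with 177, 170 and 169 counts (0.994, 0.801 to 1.23) and 1256, 501 and 809 (0.671, 0.613 to 0.733). MYC had 2951, 4013 and 2098 counts, 0.740 times control (0.700 to 0.783), and was highest in DSS.

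Genes that damp MAP kinase signalling were higher in 11 of 19 measured and lower in 1, with a median of 0.73. With the trend on GC content and length removed, 9 were higher and 1 lower, with a median of 0.40. After DUSP5, the phosphatases DUSP8 and DUSP4 had 27, 143 and 263 counts (10.1, 6.81 to 15.7) and 38, 215 and 334 (9.15, 6.53 to 13.2), and DUSP1 had 278, 763 and 1359 (5.09, 4.47 to 5.81). Each was higher in DSS with polydatin than in DSS, which their choice by distance from control favours in part. The log2 ratio of DUSP8, 3.34, became 2.73 with the trend on GC content and length removed. DUSP6 and SPRY2, which answer to ERK, were at 0.697 times control (0.635 to 0.766) and 0.703 times (0.599 to 0.825). Of 11 measured EGF family genes 5 were higher and 1 lower. The ligand genes HBEGF and AREG had 140, 410 and 683 counts (5.08, 4.23 to 6.14) and 2860, 5310 and 5555 (2.02, 1.93 to 2.12), and the receptor gene EGFR had 1931, 2889 and 3641 (1.96, 1.86 to 2.08).

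Of 21 measured NF-kB and inflammatory genes 12 were higher and none lower, with a median of 0.83. BIRC3, an inhibitor of apoptosis, had 274, 495 and 930 counts, 3.53 times control (3.09 to 4.06). ICAM1, an adhesion receptor for leukocytes, had 275, 662 and 898 (3.40, 2.97 to 3.91), NFKB2 had 257, 499 and 815 (3.30, 2.87 to 3.81) and the inhibitor NFKBIA had 329, 679 and 860 (2.72, 2.39 to 3.10). Several cytokine genes had few reads. CXCL8 had 3, 10 and 28 counts, CCL20 had 7, 12 and 22, IL1A had 4, 19 and 43, and IL6 had 1 in every library. CXCL8, CCL20 and IL1A were measured only through the library of both agents, so they could not be called lower. NFKB1, which encodes p50, was at 0.882 times control.

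Interferon-stimulated and MHC class I genes were higher in 13 of 20 measured and lower in none, with a median of 0.84, and in 8 with a trend on GC content and length removed. IRF7 had 40, 49 and 130 counts, 3.38 times control (2.36 to 4.95). HLA-C and HLA-E, which present peptides, had 800, 1312 and 1451 (1.89, 1.73 to 2.06) and 1134, 1598 and 1954 (1.79, 1.67 to 1.93). IFI44 had 0 counts in every library. GBP2, described above, stood apart from the rest of the list.

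Targets of p53 were higher in 9 of 21 measured and lower in 1, with a median of 0.41. With the trend on GC content and length removed, 9 were higher and 4 lower. CDKN1A, the cell cycle inhibitor p21, had 64, 309 and 690 counts, 11.2 times control (8.68 to 14.7). TP53INP1 had 533, 1013 and 1251 (2.44, 2.21 to 2.71) and PLK3 had 53, 119 and 143 (2.81, 2.04 to 3.93). MDM2, the ligase for p53, was at 1.19 times control (1.11 to 1.26), and SESN1, another p53 target, at 0.548 (0.497 to 0.604). Of the other cell cycle inhibitors, CDKN2B, induced by TGF-beta, had 21, 120 and 214 counts (10.6, 6.77 to 17.5) and CDKN1C had 66, 101 and 161 (2.54, 1.90 to 3.44), while CDKN1B was at 1.02 times control (0.976 to 1.06).

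Mitosis genes were the list farthest below control. Of 23 measured, 22 were at least 1.5-fold lower and none higher, with a median log2 ratio of -1.21 (DSS over control, sharing the control library, -0.65). CDC20, the activator of the anaphase-promoting complex, had 2205, 1567 and 737 counts, 0.348 times control (0.320 to 0.379). CCNB1, cyclin B1, had 6514, 4215 and 2325 (0.372, 0.354 to 0.390), AURKA, a spindle pole kinase, had 6409, 4463 and 2279 (0.370, 0.353 to 0.388) and TOP2A, the topoisomerase of dividing cells, had 19393, 12178 and 8658 (0.465, 0.453 to 0.477). The highest of the 23 was AURKB, at 0.733 times control (0.671 to 0.801).

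DNA replication genes were lower in 15 of 28 measured and higher in none, with a median of -0.60 (DSS over control, -0.53), and scaling on total counts left 10 lower. MCM6 of the replicative helicase had 7616, 5102 and 3100 counts, 0.424 times control (0.406 to 0.442). RFC3, a clamp loader subunit, had 1910, 1205 and 1006 (0.548, 0.508 to 0.592) and MCM7 had 4434, 3292 and 2447 (0.575, 0.547 to 0.604). PCNA was at 0.756 times control (0.731 to 0.782). The exceptions were CDT1, which licenses origins, with 622, 463 and 858 counts (1.44, 1.29 to 1.6), and E2F1 with 1338, 1187 and 1439 (1.12, 1.04 to 1.21).

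Histone genes of the replication-dependent kind were higher in 8 of 12 measured, with none lower and a median of 0.97. The list as a whole did not rise, summing to 740 CPM in control, 762 with DSS alone and 680 with both agents. H2BC5 had 158, 513 and 575 counts (3.79, 3.17 to 4.55) and H2AC6 had 256, 744 and 771 (3.14, 2.72 to 3.63). Since these transcripts lack poly(A) tails, their level also depends on how RNA was selected, which was not tested.

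Ribosome biogenesis genes were lower in 21 of 23 measured and higher in none, with a median of -0.82, while the median for DSS over control, sharing the control library, was -0.19. NCL, nucleolin, had 31304, 23699 and 13948 counts, 0.464 times control (0.455 to 0.473). NOP56, of the small nucleolar ribonucleoproteins, had 6071, 4869 and 2884 (0.495, 0.473 to 0.517) and UTP20, of the small subunit processome, had 1877, 1728 and 883 (0.490, 0.452 to 0.531). NPM1 had 54017, 40236 and 28734 (0.554, 0.546 to 0.562). The larger step in UTP20 and NCL lay between DSS and DSS with polydatin.

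ODC1, which opens polyamine synthesis, had 4499, 2893 and 1818 counts, 0.421 times control (0.398 to 0.444). SRM, spermidine synthase, had 454, 417 and 251 (0.576, 0.491 to 0.673). Polyamine breakdown went the other way, with SAT1 as given above and the oxidase gene SMOX at 465, 627 and 736 (1.65, 1.47 to 1.86). In all 11 measured polyamine genes 3 were higher and 2 lower. Cytosolic ribosomal protein genes, by contrast with ribosome assembly, were mostly inside 1.5-fold, with 1 higher and 3 lower of 80 measured and a median of -0.34.

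TGF-beta and mesenchymal genes were higher in 7 of 16 measured and lower in 2, with a median of 0.44. FN1, fibronectin, had 5994, 14020 and 15903 counts, 2.76 times control (2.68 to 2.85), TGFBI had 2102, 4153 and 4546 (2.25, 2.14 to 2.37) and the ligand TGFB1 had 365, 725 and 815 (2.33, 2.05 to 2.64). VIM, vimentin, had 73, 75 and 46 (0.656, 0.444 to 0.962). In the BMP list 3 genes were higher and 4 lower of 15, with a median of 0.18 and a mean of -0.14. The BMP targets ID1, ID2 and ID3 were all lower, ID2 with 3643, 1991 and 1628 counts (0.465, 0.439 to 0.493) and ID3 with 94, 38 and 41 (0.454, 0.307 to 0.662). SMAD1, which carries the BMP signal, was at 0.605 times control (0.532 to 0.687).

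WNT targets and stem cell genes were higher in 2 of 19 measured and lower in 3, with a median of -0.23. These counts are near the shares of all measured genes (16.1% and 12.6%). AXIN2 and NKD1, feedback inhibitors of the pathway, had 700, 653 and 375 counts (0.558, 0.491 to 0.633) and 311, 237 and 132 (0.442, 0.358 to 0.543) in control, DSS and DSS with polydatin. The secreted inhibitor NOTUM had 26, 106 and 94 (3.76, 2.42 to 6.06), and LGR5, the crypt stem cell marker, had 858, 1436 and 969 (1.18, 1.07 to 1.29). Targets of YAP and TEAD were higher in 4 of 15 and lower in 1, with the growth factor binder CRIM1 at 8770, 12621 and 13696 counts (1.63, 1.58 to 1.67) and AXL at 248, 366 and 413 (1.73, 1.48 to 2.04).

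Targets of the aryl hydrocarbon receptor, which binds planar ring compounds, were higher in 3 of 8 measured and lower in none. CYP1A1, its most responsive target, had 366 counts in control, 1733 with DSS alone and 683 with both agents, 1.94 times control (1.71 to 2.21). DSS with polydatin therefore lay between control and DSS. UGT1A6, a glucuronidating enzyme, had 4119, 6410 and 6449 (1.63, 1.57 to 1.70), and the efflux pump gene ABCG2 had 366, 442 and 571 (1.62, 1.42 to 1.86). The list that handles polydatin and other stilbenes held 5 higher and 4 lower genes of 14 measured, with a median of -0.14 and a mean of 0.04. SLC5A1, the sodium-coupled glucose carrier SGLT1 that can bring in glucosides, had 14, 17 and 60 counts, 4.46 times control (2.46 to 8.65), and stood out in DSS with polydatin alone. ABCC3, an efflux pump for glucuronides, had 1457, 1935 and 3261 (2.33, 2.19 to 2.48). The sulfotransferase genes SULT1E1 and SULT1B1 had 80, 20 and 19 (0.247, 0.142 to 0.412) and 58, 37 and 25 (0.449, 0.269 to 0.729), and SIRT1, a deacetylase linked with resveratrol, was at 0.884 times control (0.818 to 0.955).

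Claudins, the strands of tight junctions, were higher in 4 of 8 measured and lower in 1, with a median of 0.63. CLDN4, a sealing claudin, had 1482, 3826 and 5249 counts, 3.69 times control (3.48 to 3.91), CLDN3 had 38, 159 and 233 (6.39, 4.52 to 9.25) and CLDN7 had 693, 1354 and 1426 (2.14, 1.96 to 2.35). CLDN2, which forms a pore for cations and water, had 1854, 1612 and 612 (0.344, 0.313 to 0.377). The sealing claudins were thus highest and CLDN2 lowest in DSS with polydatin. Of 22 measured genes for junction plaques and adherens junctions 5 were higher and none lower, with occludin (OCLN) at 1401, 2032 and 2347 counts (1.74, 1.63 to 1.87) and TJP1, the plaque protein ZO-1, at 4852, 5331 and 5242 (1.12, 1.08 to 1.17).

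Brush border enzymes were higher in 7 of 11 measured and lower in 1, SI. ALPG, next to ALPP, had 107, 1123 and 979 counts, 9.53 times control (7.80 to 11.7), and the intestinal phosphatase ALPI had 337, 462 and 531 (1.64, 1.43 to 1.89). Genes of the microvillus core were higher in 5 of 16 and lower in 1, with a median of 0.13. With the trend on GC content and length removed these became 1 higher and 2 lower, with a median of -0.04. MYO1A, the brush border myosin, had 320, 707 and 704 (2.29, 2.00 to 2.62), whereas VIL1, villin, was at 0.877 times control (0.849 to 0.905). Among intestinal transcription factors 3 were higher and 3 lower of 13 measured. ELF3 had 540, 1091 and 1280 counts (2.47, 2.23 to 2.73), and CDX2, which specifies intestine, had 2666, 2180 and 1365 (0.533, 0.499 to 0.569).

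Mucin and goblet cell genes were higher in 6 of 11 measured and lower in 2, mostly from few reads. FCGBP, MUC4 and MUC1 were measured only through the library of both agents, so they could not be called lower. The transmembrane mucin MUC13 had 1244, 1894 and 2096 counts (1.75, 1.63 to 1.88) and MUC3A had 202, 252 and 379 (1.95, 1.64 to 2.33). FCGBP, a mucus protein of goblet cells, had 3, 62 and 83 counts, 28.8 times control (9.52 to 143), and MUC1 had 8, 42 and 41 (5.34, 2.47 to 13.2). Without the trend on GC content and length the log2 ratio of FCGBP went from 4.85 to 4.20 and that of MUC1 from 2.42 to 1.6. MUC2, the secreted gel mucin, had 0, 2 and 4. Keratin genes were higher in 4 of 8 and lower in none, led by KRT80 with 33, 71 and 124 counts (3.91, 2.65 to 5.93), while the abundant KRT8 and KRT18 were at 0.948 and 0.921 times control.

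Lipoprotein genes were higher in 4 of 14 measured and lower in 3, with a median of 0.19 that turned to -0.08 once the trend on GC content and length was removed. APOE had 2242, 4412 and 5026 counts (2.33, 2.22 to 2.45). APOB, the scaffold of chylomicrons, had 2071, 1814 and 1083 (0.545, 0.505 to 0.586), and APOH had 251, 151 and 109 (0.452, 0.358 to 0.568). Secreted proteins of the liver type were higher in 4 of 19 and lower in 6. SERPINA1, alpha-1-antitrypsin, had 2326, 7709 and 6904 counts (3.09, 2.95 to 3.24) and complement C3 had 75, 236 and 320 (4.44, 3.45 to 5.79), against the low fibrinogen, fetuin and alpha-fetoprotein genes described above.

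Integrin and basement membrane genes were higher in 12 of 23 measured and lower in 2, with a median of 0.71, and in 8 with the trend on GC content and length removed. ITGB8 had 167, 777 and 1017 counts, 6.34 times control (5.38 to 7.51), and ITGB6, a receptor that activates latent TGF-beta as ITGB8 does, had 14, 37 and 65 (4.83, 2.69 to 9.33). The laminin chains LAMA3 and LAMB3 had 743, 1054 and 1825 (2.56, 2.35 to 2.79) and 3007, 4381 and 5437 (1.88, 1.80 to 1.97). Both were higher in DSS with polydatin than in DSS. COL4A1 and COL4A2, the collagen of basement membranes, had 259, 84 and 80 (0.322, 0.247 to 0.415) and 145, 52 and 68 (0.488, 0.361 to 0.656).

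Among genes of the plasminogen system and metalloproteases 7 of 13 measured were higher and none lower. TIMP3, a matrix-bound inhibitor of metalloproteases, had 1669, 6242 and 6519 counts (4.07, 3.85 to 4.29), PLAU, urokinase, had 29, 132 and 122 (4.38, 2.90 to 6.81) and MMP14 had 1164, 2155 and 2788 (2.49, 2.33 to 2.67). Of calpain and S100 genes 7 of 16 were higher and none lower, with S100A6 at 313, 1298 and 1349 counts (4.49, 3.97 to 5.09). In the BCL2 family 4 of 15 were higher and none lower, or 2 and 1 with the trend on GC content and length removed. BIK, which promotes apoptosis, had 27, 106 and 126 (4.86, 3.19 to 7.66), and BCL2L1, which restrains it, had 7613, 12318 and 11265 (1.54, 1.5 to 1.59), while MCL1 was at 1.05 times control.

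Autophagy and lysosome genes were higher in 10 of 23 measured and lower in none, with a median of 0.55. ATG9B, a lipid scramblase of early autophagosomes, had 10, 39 and 77 counts, 8.02 times control (4.13 to 17.4). CTSD, cathepsin D, had 301, 840 and 1040 counts (3.6, 3.16 to 4.10), NEU1, a lysosomal sialidase, had 2339, 5839 and 7635 (3.40, 3.24 to 3.56) and OPTN, a receptor for cargo, had 809, 1669 and 2325 (2.99, 2.76 to 3.25). The conjugation genes ATG5 and ATG7 were at 0.805 and 0.810 times control.

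Peroxide-handling and oxidase genes were higher in 3 of 17 measured and lower in 4, none of the 4 on total-count scaling, or in 1 and 1 with the trend on GC content and length removed. PRDX3, a mitochondrial peroxiredoxin, had 5626, 4761 and 3470 counts (0.642, 0.616 to 0.670). SOD2 was not analysed here. Of 11 measured prostaglandin genes 3 were higher and 1 lower, with PTGS2, cyclooxygenase-2, at 640, 713 and 1046 (1.70, 1.54 to 1.88) and PTGES at 84, 87 and 139 (1.72, 1.3 to 2.29). The proteasome had none higher and 2 lower of 26, with a median of -0.31, and the mitochondrially encoded genes none higher and 1 lower of 13, with a median of -0.36. In 14 housekeeping genes the median was -0.10 and turned to 0.0047 on total-count scaling, which moved the median of all measured genes by 0.11 on the log2 scale. ACTB and GAPDH were at 0.967 and 0.955 times control.

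**Figure D4:**
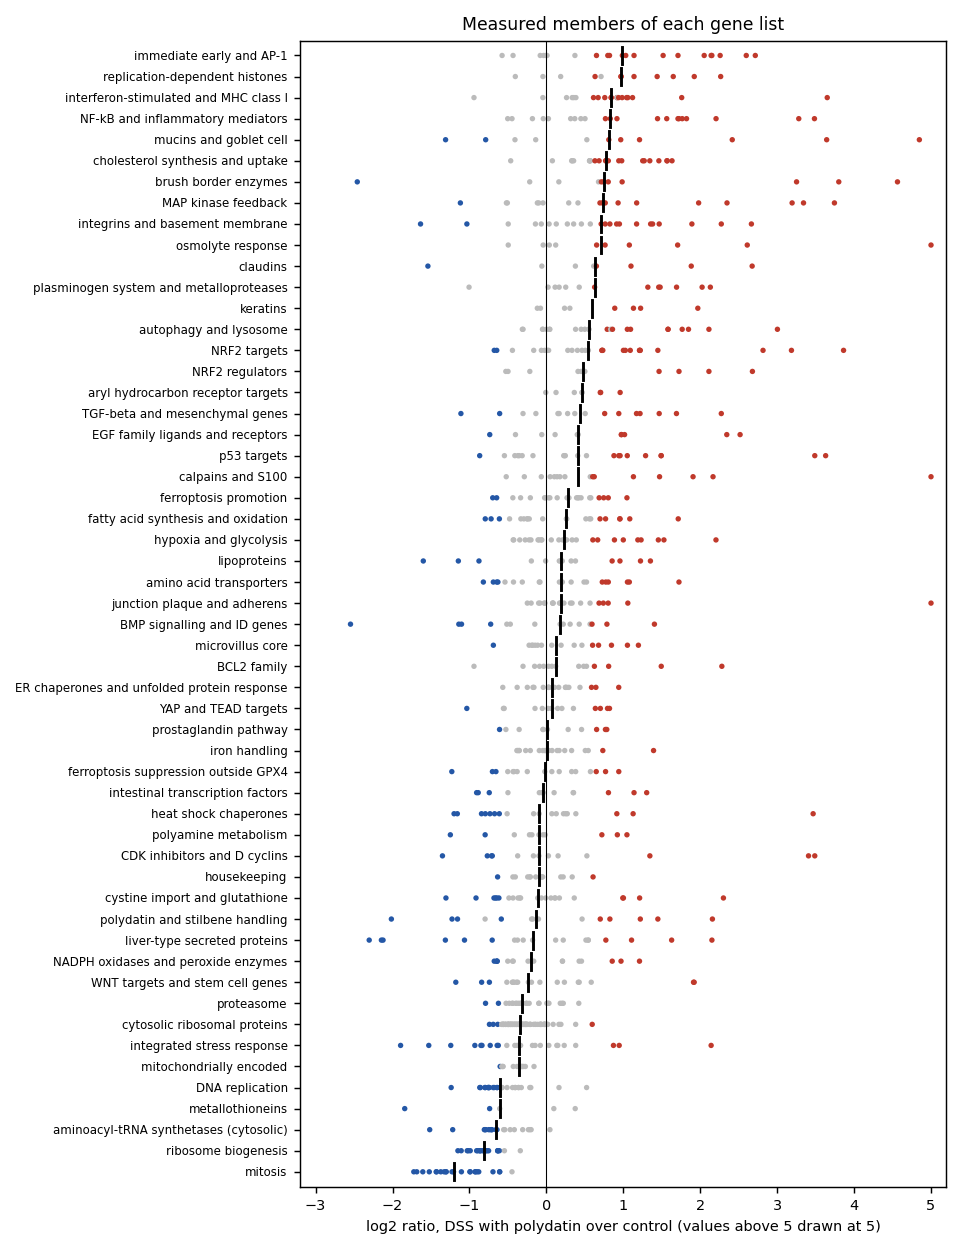
Log2 ratios of DSS with polydatin over control for the measured members of 54 gene lists ordered by median (black bars), with members at least 1.5-fold higher in red, at least 1.5-fold lower in blue and others in grey. Immediate early genes and histones stand at the top, with medians of 0.99 and 0.97, and ribosome biogenesis and mitosis at the bottom, with medians of -0.82 and -1.21.

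The ratio moved with the base composition of the transcripts. Protein-coding genes were placed in quintiles of GC content, and the median log2 ratio went from -0.20 in the lowest quintile to 0.38 in the highest. Genes at least 2-fold higher made up 3.29% of the lowest quintile and 16.4% of the highest, and genes at least 2-fold lower made up 4.57% and 0.618%. Transcript length showed little of this, with medians from -0.08 in the shortest quintile to -0.01 in the longest. With a smooth trend on both removed, 955 genes passed 2-fold upwards and 491 downwards. The part that library preparation or RNA quality had in this trend was not tested.

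Gene types differed in the same comparison. Antisense genes had a median of 0.16 and long intergenic noncoding genes 0.11, with 15.3% and 15.2% of them at least 2-fold higher. Processed pseudogenes had a median of -0.38, with 3.12% higher and 12.5% lower at 2-fold. Since the strand setting of the counting is not given in the sources used here, reads of antisense and other overlapping genes cannot be told apart. Some usually abundant genes had few counts, such as ALDOA with 13, 42 and 36, SDHA with 75, 73 and 82, ASNS with 61, 20 and 41 and PRC1 with 7, 5 and 9. How reads that fit several genes were counted is not given in the sources used here, and its part in these counts was not tested. Of the genes at least 2-fold higher 66.5% overlap another gene, of those lower 66.0%, and of all measured genes 69%. Calls were more frequent at low levels, with 17.8% higher and 7.19% lower below 2 CPM and 3.63% and 2.88% above 100 CPM. Over the autosomes and the X chromosome the share at least 2-fold higher ran from 5.01% of measured genes on chromosome 15 to 13.3% on chromosome 22.

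**Figure D5:**
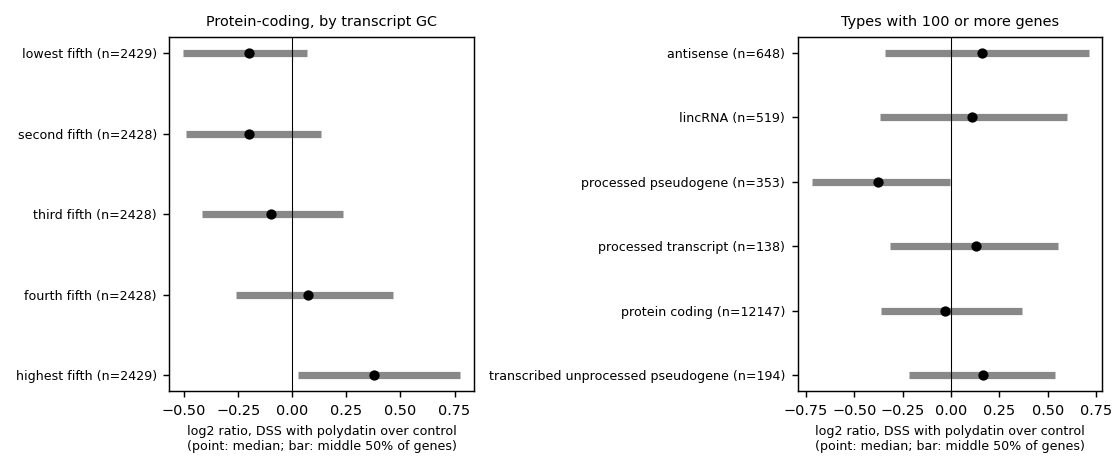
Medians (points) and the middle 50% of genes (bars) of the log2 ratio of DSS with polydatin over control, for quintiles of transcript GC content on the left and for gene types with at least 100 measured genes on the right. The median climbs from -0.20 to 0.38 across the quintiles, and processed pseudogenes lie below the other types.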

How the data were processed

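Per the labels' protocols, Trizol was used for extraction and a VAHTS Universal V6 kit for the libraries. Reads were aligned with HISAT2 to GRCh38, per the submitters' processing notes. For the version of HISAT2, how reads were counted, the gene annotation, RNA selection and strand, the entry is: not given in the sources used here. Values deposited by the authors are raw read counts per Ensembl gene, with 1 column a library. A symbol was matched for 42028 of 60664 identifiers, and 58396 were found in GENCODE 29, which gave the coordinates.

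Counts were scaled by library totals and TMM factors of edgeR 4.0.16 (0.971, 0.984 and 1.05 for control, DSS and DSS with polydatin) in R 4.3.3. Each ratio of scaled counts carries an exact Clopper-Pearson 95% interval for counting error (scipy 1.17.1). It was tried on simulated data that held counting error only, which cannot show how it covers copied reads, scaling error or replicate spread. A gene was called when this interval excluded 1 and the ratio was at least 2-fold, or 1.5-fold for list members. Only in genes with 0 counts was a pseudocount of 0.5 used, and their folds are bounds against 3 counts in the library at 0.

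Genes named by rule were those of the series title with KEAP1, the 15 highest and 15 lowest, up to 5 genes with 0 counts in either library, and up to 4 called members of each list. The others were named after their values were seen. The comparison and the gene lists were chosen with earlier results of these data known. Alternatives tried were scaling on total counts or by DESeq2 1.42.0 size factors, TMM over the 2 libraries compared, other count minimums and folds, thinning to equal depth, 2 added counts, means for medians, and removal of a trend on GC content and transcript length. The groups with erastin or a ferroptosis inhibitor were not analysed here. The lists hold some genes whose single values are not reported here.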

Additional observations from a re-analysis of the deposited data

How the results depend on the processing

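The 1224 higher and 476 lower genes became 481 and 225 with a minimum of 200 counts and 2329 and 1822 at 1.5-fold. Both counts stayed within 1.5 times under the other settings tried: 1510 and 333 with total-count scaling (81.9% of calls higher, against 72% as reported), 1160 and 530 with DESeq2 size factors, 1204 and 496 with TMM over the 2 libraries, 1572 and 593 with no minimum, 1230 and 479 after thinning, and 955 and 491 with the trend on GC content and length removed (66.0% higher). Of the 230 genes named by rule only GPX4 changed sign under the settings run on them, from a log2 ratio of -0.01 to 0.10 with total-count scaling. Other genes given above were not run singly. Total-count scaling raised log2 ratios by 0.11, which takes ratios just below control above it. Among these are FOS, HMOX1, GSR, ACTB, GAPDH, KRT8 and SLC2A1.

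Among list medians, the sign turned when members were averaged for fibroblast and endothelial markers (0.45), BMP and ID genes (-0.14) and stilbene handling (0.040). It turned with the trend on GC content and length removed for fatty acid genes (-0.0358), the microvillus core (-0.0356) and lipoproteins (-0.0843), and with total-count scaling for housekeeping genes (0.0047). Other medians near 0 also changed sign. With total-count scaling they became 0.01 for polyamine genes, 0.03 for epithelial markers, 0.086 for ferroptosis suppression, 0.065 for intestinal transcription factors, 0.0091 for CDK inhibitors and 0.01 for heat shock chaperones. With DESeq2 size factors they became -0.02 for iron handling and -0.02 for the prostaglandin pathway. Means had the other sign for epithelial markers (0.23), CDK inhibitors (0.37) and intestinal transcription factors (0.063), and that of heat shock chaperones was just above 0. DESeq2 size factors gave 4 lower mitochondrially encoded genes in place of 1 and 8 lower ribosomal protein genes in place of 3. The cause of these changes was not tested. No paired analysis was possible because each group was 1 library. Depth limits genes under about 2 CPM, where intervals are wide.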
